A study of Drosophila melanogaster with 6 samples.

Results

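Insulin and TOR signalling genes were followed in Drosophila hemocytes across the onset of metamorphosis. The 9 genes were InR, chico, foxo, Thor, Tor, S6k, Tsc1, gig and ImpL2, taken by gene name from a table of 13395 genes in which all 9 had a row. RNA was sequenced from sorted GFP-positive blood cells, in 3 libraries of wandering L3 larvae and 3 libraries of white prepupae. Both groups carried the transgenes Hml-GAL4.delta and UAS-GFP, so the cells of both stages were chosen by activity of the Hml driver, which marks plasmatocytes, the macrophages of the fly, together with some crystal cells. The study states in general that experiments used different flies or cells on different days, but the sources used here do not give the number of animals behind a library or which animals a library came from. The p-values therefore measure the spread between these libraries, which may be in part technical.

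Insulin-like peptides bind the receptor InR, which acts through the substrate protein chico and a lipid kinase, PI3K, to activate the kinase Akt. Akt keeps the transcription factor foxo out of the nucleus and inhibits the complex of Tsc1 and gig (the fly TSC2), which otherwise holds the kinase Tor in check through the GTPase Rheb. Active Tor, recruited to lysosomes when amino acids are plentiful, phosphorylates S6k and the translation repressor Thor, and in this way couples nutrition to growth of the cell. ImpL2 is a secreted protein that binds insulin-like peptides and lowers signalling in other tissues.

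The libraries held between 19228352 and 25958543 counts, and 7914 genes passed the filter on low counts and were tested. A gene was called at an adjusted p (false discovery rate, FDR) below 0.05 in edgeR's quasi-likelihood test. Levels are in CPM, counts per 1000000 of the library after TMM scaling, and log2 fold changes, given with their standard error (SE), are prepupal over larval. Of the tested genes, 53.9% were called, 27.3% as lower and 26.6% as higher in prepupae. The markers of the sorted cells also moved. The summed level of 8 plasmatocyte markers was 16470 to 24910 CPM in larval and 4164 to 6716 CPM in prepupal libraries, with 7 markers called lower and 1, crq, called higher. Hml, whose driver was used for the sort, was among the lower ones. It stood at 5164, 3208 and 6364 CPM in larval and 248, 83.9 and 114 CPM in prepupal libraries. Its log2 fold change was -5.05 (SE 0.44, FDR = 2.5e-05, edgeR). The 4 crystal cell markers summed to 2049 to 3210 CPM in larvae and 555 to 1472 CPM in prepupae, and all 4 were called lower. The 5 lamellocyte markers summed to 1001 to 1398 CPM against 520 to 642 CPM, with 1 of the 4 tested called lower and 1 higher, and with atilla and ItgaPS4 at 0 in prepupal replicate 2. The lower one was cher, with means of 772 CPM in larval and 18.4 CPM in prepupal libraries. The higher one was PPO3, with means of 23.2 and 56.8 CPM, and mys, not called, had 436 and 515 CPM. The sum thus rested mostly on cher and mys, and its fall on cher. Genes of other tissues were low throughout. Those of the fat body summed to 40.5 to 58.1 CPM in larval and 50.2 to 58.1 CPM in prepupal libraries, with 2 of 6 tested called higher and 1 lower. Those of the salivary glands lay at 6.40 to 9.02 and 6.52 to 9.82 CPM and those of muscle at 10.8 to 14.0 and 11.2 to 15.0 CPM, with none of the 11 tested called by edgeR, none at an unadjusted p below 0.05, and none by DESeq2 or limma-voom. The part of these shifts in the results below was not tested. In such bulk samples, fewer cells of a type and less RNA per cell cannot be told apart.

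The stage difference also went with transcript length. Longer genes had lower log2 fold changes, with a Spearman correlation of -0.40 across the 7873 tested genes of known length, a description across genes with no p-value. The 9 genes run from 755 exonic bp (Thor) to 11367 (InR). Each was therefore also fitted with the length trend of every library removed and the replicate number as a block. The values of this fit stand beside the main ones. The cause of the trend was not tested. A technical trend and a true stage difference that goes with length cannot be told apart here, and the fit removes both. Length-corrected below means only that the trend was removed. Same-numbered libraries of the 2 stages deviated together only weakly (r = 0.277, 0.30 and 0.102 over genes), and the labels give no pairing. Calls made only with the block rest on this pairing, which was taken from the same data.

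All 9 genes passed the low-count filter, and 4 of them fell in prepupae, namely InR, chico, foxo and gig. This is 44.4% of the 9, beside 27.3% of all tested genes called lower and 53.9% called in either direction. With the length trend left in, none was called higher, and none was higher at an unadjusted p below 0.05 in edgeR, or at an adjusted p below 0.05 in DESeq2 or limma-voom. The median log2 fold change of the 9 was -0.40, beside -0.026 for all tested genes. The replicate block alone added Tsc1 and S6k to the lower genes, making 6 beside 30.5% of all tested genes called lower. With the length trend removed and the block, 3 genes were lower (chico, foxo and, newly, Thor) and Tor was higher. Among all tested genes, 22.8% were lower and 30.5% higher in that fit. With the length trend removed but no block, 2 were lower (chico and foxo) and Tor higher, against 22.1% and 29.2%. Of the 9 genes, chico and foxo were the ones called lower in each of these fits.

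**Figure D1:**
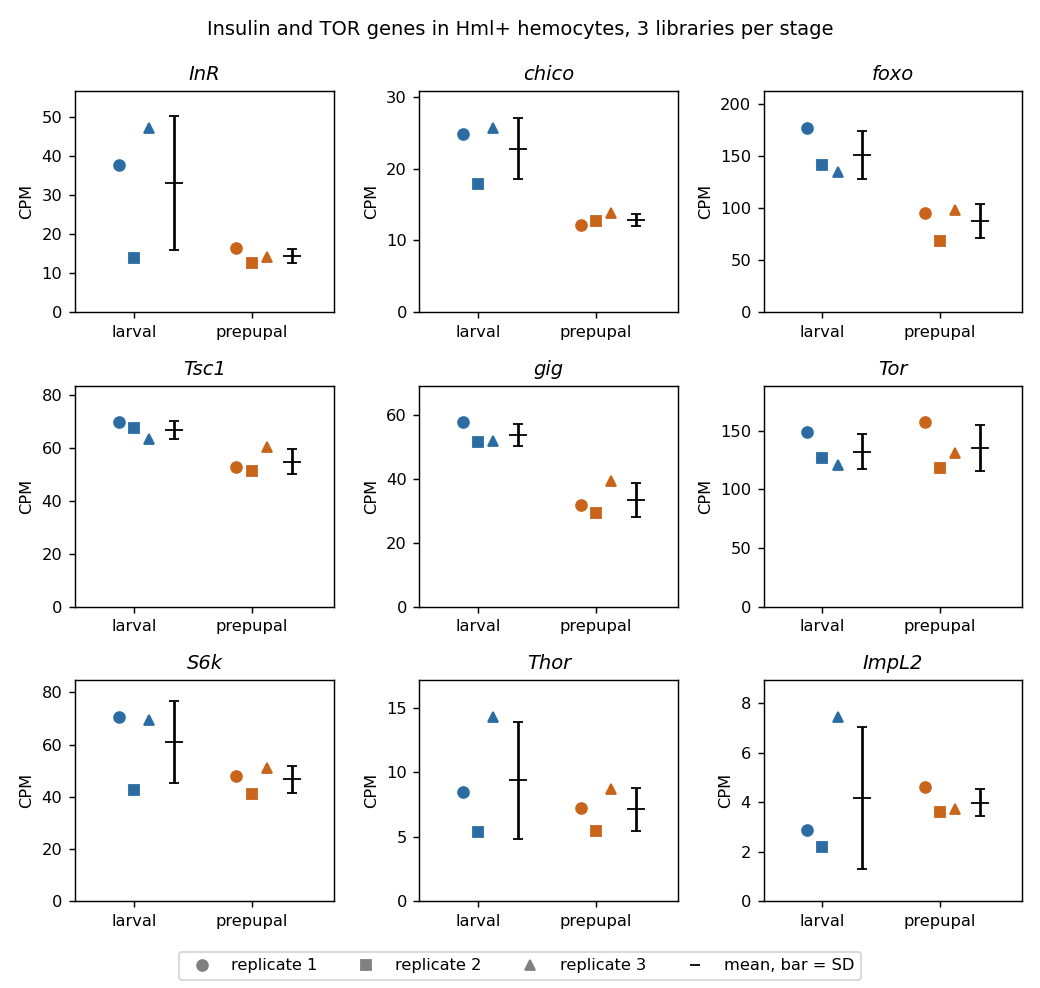
Level in CPM (y axes start at 0) of the 9 genes in each larval (blue) and prepupal (orange) library, with the mean and SD of 3 libraries in black. The prepupal libraries of chico, foxo, Tsc1 and gig all lie below the larval ones, whereas InR in larval replicate 2 (13.9 CPM) sits among the prepupal values.

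InR encodes the insulin receptor, a tyrosine kinase at the cell surface. It is located on chromosome 3R, minus strand, from 21570248 to 21619321 of the dm6 assembly, with 11367 bp in 15 merged exons. Its level was 37.7, 13.9 and 47.2 CPM in larval replicates 1, 2 and 3 and 16.3, 12.6 and 14.2 CPM in the prepupal replicates. Larval replicates 1 and 3 lay above every prepupal library, and larval replicate 2 lay inside the prepupal range. Larval libraries averaged 33.0 ± 17.2 and prepupal libraries 14.4 ± 1.87 CPM (SD, n = 3 per stage), with a log2 difference of -1.20 (SE 0.36, FDR = 0.0175, edgeR), which is 43.5% of the larval level. It was the only one of the 9 genes that changed by at least 2-fold at this FDR, as did 12.1% of all tested genes in the lower direction. The call was lost without larval replicate 3 (-0.83, FDR = 0.0581, edgeR), prepupal replicate 2 (-1.11, FDR = 0.062) or prepupal replicate 3 (-1.19, FDR = 0.0565), and without larval replicate 2 the value was -1.54 (FDR = 2.48e-05). The length-corrected fit with the block gave -0.34 (FDR = 0.207, edgeR), and limma-voom gave -1.05 (FDR = 0.0576).

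The adaptor gene chico, the fly homologue of the insulin receptor substrates, is located on chromosome 2L, minus strand, from 10242512 to 10247078. Its level was 24.8, 17.9 and 25.7 CPM in the larval and 12.2, 12.7 and 13.8 CPM in the prepupal libraries. The stages did not overlap, which held for 63% of all tested genes in either direction and for 31.8% with the prepupal libraries below. Its log2 fold change was -0.82 (SE 0.16, FDR = 0.00242, edgeR), so prepupal hemocytes held 56.6% of the larval level. It was -0.49 with the length trend removed and the block (FDR = 0.0159), and between -0.94 and -0.71 with each library left out in turn. In the later annotation, chico shares 380 exonic bp with asRNA:CR44995 on the opposite strand, which was not analysed here, and the libraries keep no strand.

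The transcription factor gene foxo lies on the plus strand of chromosome 3R from 14056945 to 14087978. It was read at 177, 142 and 135 CPM in larval and 95.3, 68.7 and 97.9 CPM in prepupal libraries, again with no overlap. The log2 fold change was -0.79 (SE 0.16, FDR = 0.00275, edgeR), or 57.8% of the larval level. It stayed at -0.43 with the length trend removed and the block (FDR = 0.0207), and within -0.88 to -0.65 with single libraries left out. Per exonic length foxo had the highest mean level of the 9 genes at both stages.

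Among 6 genes known to be activated by FOXO, 5 were tested. InR and Lip4, a lipase gene, were called lower, and Thor, the lipase gene bmm and l(2)efl, a small heat shock gene, were not called. These 2 of 5 stand beside 27.3% of all tested genes called lower. Their median log2 fold change was -1.15, and with the length trend left in none was called higher by edgeR, DESeq2 or limma-voom or at an unadjusted p below 0.05 in edgeR. The length-corrected fit with the block called 3 lower, Thor, Lip4 (-1.23, FDR = 0.026) and l(2)efl (-1.50, FDR = 0.0205), and bmm higher (0.57, FDR = 0.0296), and no longer called InR. Of all tested genes, 22.8% were lower and 30.5% higher in that fit. Counts of 2 of these genes were low. Lip4 had 55, 30 and 33 in larval and 17, 9 and 9 in prepupal libraries, and l(2)efl 17, 20 and 39 against 8, 8 and 11. The stress gene Sesn was read with no more than 3 counts per library and was not tested.

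The subunits of the TSC complex both had negative log2 fold changes, and 1 of them was called. The gene gig, on the plus strand of chromosome 3L from 20129181 to 20139010, stood at 57.6, 51.6 and 51.7 CPM in larval and 31.7, 29.2 and 39.3 CPM in prepupal libraries. Every prepupal library lay below every larval one, and the log2 fold change was -0.68 (SE 0.14, FDR = 0.00238, edgeR), or 62.2% of the larval level. In the length-corrected fit with the block it was -0.20 and no longer called (FDR = 0.207). Tsc1, on the plus strand of chromosome 3R from 24130307 to 24134654, had 69.5, 67.3 and 63.2 CPM in larval and 52.6, 51.3 and 60.2 CPM in prepupal libraries. Its stages did not overlap either, yet the log2 fold change of -0.29 (SE 0.11) missed the threshold (FDR = 0.057, edgeR). Tsc1 was called with the replicate block alone (-0.29, FDR = 0.0384), and with the length trend also removed it lay at 0.060 (FDR = 0.647).

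A ratio of reads within a library does not depend on scaling between libraries. The larval libraries held 0.829, 0.766 and 0.819 reads of gig per read of Tsc1, and the prepupal libraries 0.603, 0.569 and 0.654. This ratio, chosen after the values were seen and given without a test, was lower in each prepupal library than in each larval one. The transcripts differ in length, with 5795 exonic bp for gig and 3896 for Tsc1.

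Tor itself, the kinase at the centre of the pathway, lies on the plus strand of chromosome 2L from 13004480 to 13013197. Its larval levels were 149, 127 and 121 CPM and its prepupal levels 157, 118 and 131 CPM. The stages overlapped, with a log2 fold change of 0.036 (SE 0.14, FDR = 0.839, edgeR). Under scaling by total counts, which shifts the median of all tested genes to -0.22, it was -0.16. With its 7987 exonic bp, Tor was called higher once the length trend was removed with the block (0.63, SE 0.11, FDR = 0.00202, edgeR). Reads of foxo per read of Tor, a ratio also picked after its values were known, came to 1.19, 1.12 and 1.12 for the larval libraries and to 0.606, 0.581 and 0.745 for the prepupal ones. A further ratio, InR per chico, overlapped between the stages. It was 1.52, 0.779 and 1.84 in larval and 1.34, 0.992 and 1.03 in prepupal libraries.

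Of the targets of Tor, S6k encodes the kinase that phosphorylates ribosomal protein S6 and maps to chromosome 3L, minus strand, from 5797549 to 5810931. Its level was 70.5, 42.8 and 69.5 CPM in larval and 47.9, 41.0 and 51.1 CPM in prepupal libraries. Larval replicate 2 lay within the prepupal range. The log2 fold change of -0.39 (SE 0.19, FDR = 0.111, edgeR) was not called. It was called with the replicate block (-0.36, FDR = 0.0287) and without larval replicate 2 (-0.56, FDR = 0.00376), and lay at 0.073 (FDR = 0.582) with the length trend also removed.

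Thor encodes the repressor that binds the cap-binding protein eIF4E and is released from it when phosphorylated. It is the shortest of the genes, on the plus strand of chromosome 2L from 3478434 to 3479612. The larval libraries held 233, 118 and 332 of its counts and the prepupal libraries 128, 110 and 166, which are 8.47, 5.36 and 14.3 CPM and 7.20, 5.45 and 8.72 CPM. Larval replicate 2 was below all prepupal libraries and larval replicate 3 above the highest of them. The log2 fold change was -0.40 (SE 0.33, FDR = 0.333, edgeR). It turned to 0.054 without larval replicate 3, whereas with the length trend removed and the block Thor was called lower (-0.72, SE 0.18, FDR = 0.00992).

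ImpL2, named for its induction by ecdysone in imaginal discs, maps to chromosome 3L, minus strand, from 4224006 to 4236147. It was read at 79, 48 and 173 counts in larval and 82, 73 and 71 counts in prepupal libraries, or 2.87, 2.18 and 7.43 CPM and 4.61, 3.61 and 3.73 CPM. Larval replicate 3 was the highest of all 6 libraries and the other 2 larval libraries the lowest. The log2 fold change was -0.062 (SE 0.42, FDR = 0.911, edgeR) and 0.67 without larval replicate 3 (FDR = 0.0953). A stage difference was not detectable at this depth and spread. A later annotation places the gene CG46460, not analysed here, on the same strand across 1651 of the 2667 exonic bp of ImpL2, so reads of the 2 could not be separated there. Among the other Imp genes tested, ImpE3 stood at 0.070 and Ldh, the lactate dehydrogenase once named ImpL3, at -1.50 with 149, 55 and 539 larval against 67, 51 and 89 prepupal counts (FDR = 0.0833), with larval replicate 3 again highest. None of the 3 tested Imp genes was called by edgeR, DESeq2 or limma-voom, and 1 was lower at an unadjusted p below 0.05 in edgeR.

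**Figure D2:**
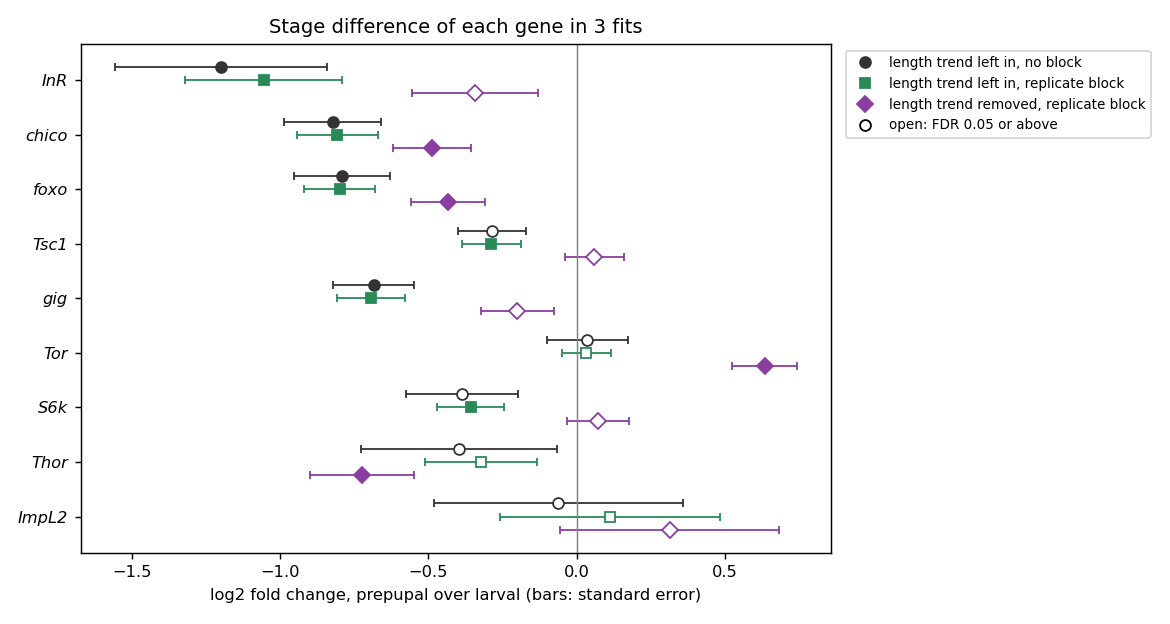
Log2 fold change (prepupal over larval, x axis) of each gene with its standard error, from 3 edgeR fits of 3 larval and 3 prepupal libraries; filled symbols have an FDR below 0.05. The values of chico and foxo are filled in all 3 fits, and Tor moves from 0.036 to 0.63 when the length trend is removed with the block.

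Larval replicate 2 was the lowest larval library for 6 of the 9 genes, ImpL2, InR, chico, gig, S6k and Thor. Its CPM was 32.7% of the mean of larval replicates 1 and 3 for InR, 42.4% for ImpL2 and 47.2% for Thor, but 90.7% for foxo and 94.3% for gig, while for Tsc1 it lay between the other larval libraries. The same library was below the other larval libraries for 71.9% of all genes called lower in prepupae and for 38.8% of all tested genes. Without it, 5 of the 9 genes were called lower, beside 2230 of 8151 tested genes. Without larval replicate 3, 3 of the 9 were, beside 1752 of 8066. The spread between larval libraries was thus wider for InR, Thor and ImpL2 than for Tsc1 and gig, whose larval SDs were 3.23 and 3.46 CPM on means of 66.7 and 53.7 CPM.

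Levels of different genes were compared per kilobase of exon. The length joined the exons of all annotated transcripts, whichever were expressed, and the length trend between libraries was left in. In larval hemocytes foxo led with 36.6 ± 5.52 CPM per kb (SD, n = 3), and no other gene overlapped its range. Tsc1 (17.1), Tor (16.6), Thor (12.4) and S6k (12.4 CPM per kb) followed, each overlapping its neighbour in this order, and S6k overlapped gig (9.26). Below them, gig, chico (6.36) and InR (2.90 CPM per kb) had separate ranges, and InR and ImpL2 (1.56) overlapped. In prepupae foxo (21.1 ± 3.94 CPM per kb) overlapped Tor (17.0), and Tor overlapped Tsc1 (14.0). S6k (9.56) and Thor (9.41 CPM per kb) lay apart from Tsc1 above and from gig (5.76) below, and chico (3.60) was separate from both neighbours. InR came last in prepupae with 1.26 ± 0.160 CPM per kb (SD, n = 3), overlapping neighbouring ImpL2 (1.50).

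**Figure D3:**
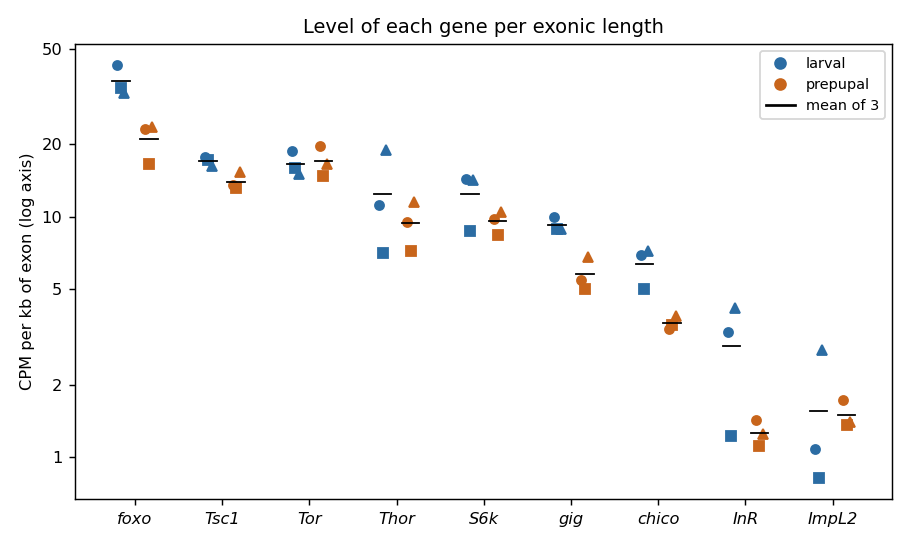
CPM per kilobase of exon (log axis) of the 9 genes in every larval (blue) and prepupal (orange) library, ordered by larval mean; black lines are means of 3 libraries. The gene foxo leads at both stages, and InR goes from 2.90 to 1.26 CPM per kb, with the length trend between libraries left in.

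The other genes of the pathway were taken from 5 lists of 67 genes, the 9 included. Of these, 63 had a row and 56 were tested, with 8 called higher and 21 lower, or 51.8% called beside 53.9% of all tested genes. By direction, 26.6% of all tested genes were higher and 27.3% lower. Without the 9, 47 pathway genes were tested, with 8 higher and 17 lower. After removal of the length trend, with the block, the balance of the 56 was 15 higher and 14 lower, beside 30.5% higher and 22.8% lower among all tested genes. Of the 21 lower and 8 higher genes, 12 and 7 were called the same way in both fits.

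From the receptor to Akt and foxo, 8 of 11 tested genes were called lower, beside 27.3% of all tested genes. With the length trend left in, none was called higher by edgeR, DESeq2 or limma-voom or at an unadjusted p below 0.05 in edgeR. Their median log2 fold change was -0.60. With the length trend removed and the block, 4 of the 8 remained lower, namely chico, foxo, Pdk1 and Lnk, and 2 were called higher, Pi3K92E and the adaptor gene dock (0.37, FDR = 0.00783, edgeR), beside 22.8% lower and 30.5% higher among all tested genes. The widest difference was that of Pdk1, the kinase that phosphorylates Akt. It stood at 118, 96.7 and 96.0 CPM in larval and 30.9, 19.4 and 26.8 CPM in prepupal libraries, with a log2 difference of -2.02 (SE 0.18, FDR = 2.6e-05, edgeR) and of -1.49 in the length-corrected fit with the block. Lnk, an adaptor of the receptor, fell by 0.60 on the log2 scale (FDR = 0.00372) and by 0.29 in that fit.

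Akt1, which encodes Akt, had 100.4, 71.4 and 96.6 CPM in larval and 61.7, 64.0 and 64.6 CPM in prepupal libraries. Its log2 fold change of -0.50 (FDR = 0.0138, edgeR) was no longer called without larval replicate 1 (-0.40) or 3 (-0.42) and was -0.052 with the length trend removed and the block. The catalytic PI3K subunit gene Pi3K92E had a log2 fold change of -0.16 (FDR = 0.271) and was called higher, at 0.27, in that fit.

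Of the ligand genes only Ilp6, which encodes an insulin-like peptide known from the fat body and glia, was read at more than a trace. It had 131, 119 and 111 CPM in larval and 149, 117 and 129 CPM in prepupal libraries, with overlapping stages. The log2 fold change was 0.13 (SE 0.12, FDR = 0.403, edgeR), -0.067 under scaling by total counts, and 0.29 (FDR = 0.028) with the length trend removed and the block. Ilp5 had 10, 7 and 7 counts in larval and 1, 2 and 1 in prepupal libraries, and Ilp8 had 13 counts in larval replicate 1 and at most 1 elsewhere. Neither passed the filter. In the list of ligands and secreted binding proteins, 3 genes were tested. With the length trend left in, 1 was called lower and none higher by edgeR, DESeq2 or limma-voom, nor at an unadjusted p below 0.05 in edgeR. Of all tested genes, 27.3% were called lower and 26.6% higher by edgeR.

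Among 9 genes of the TSC complex, Rheb and the TOR complexes, gig and rictor were called lower and 7 were not called, with a median of -0.11. This is 22.2% called lower, beside 27.3% of all tested genes. With the length trend left in, none was called higher by edgeR, DESeq2 or limma-voom or at an unadjusted p below 0.05 in edgeR. Rheb, the activator of Tor, stood at 0.17 (SE 0.12, FDR = 0.24, edgeR), and -0.024 under scaling by total counts. The gene raptor, a subunit that Tor uses to bind its targets, had one of -0.16 (FDR = 0.306). In the length-corrected fit with the block, raptor was at 0.40 (FDR = 0.0257, edgeR) and was called higher like Tor, while gig and rictor were not called. That fit called 30.5% of all tested genes higher and 22.8% lower.

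The genes that report amino acids and stress to Tor moved in both directions, with 7 of 23 tested called higher and 6 lower, beside 26.6% and 27.3% of all tested genes. The length-corrected fit with the block called 9 higher and 3 lower, beside 30.5% higher and 22.8% lower among all tested genes. Among the higher ones were chrb, AMPKalpha and Lkb1. The 7 called higher with the length trend left in were RagA-B and RagC-D, the GTPases that bring Tor to lysosomes, Lamtor1, Lamtor3, Lamtor4 and Lamtor5, which anchor them there, and Sec13, a coat protein shared with other complexes. Lamtor5, listed in the table as CG14812, rose from 37.3, 47.8 and 34.1 CPM in larval to 101.7, 134 and 108 CPM in prepupal libraries. Its log2 fold change was 1.53 (SE 0.16, FDR = 7.25e-05, edgeR) and 1.16 with the length trend removed and the block.

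Lamtor3 (CG5110) rose by 1.36 and Lamtor4 (CG14977) by 1.06 on the log2 scale, and by 0.95 and 0.52 in the length-corrected fit with the block. RagA-B rose by 0.77, from 80.4, 94.4 and 76.5 CPM to 119, 150 and 159 CPM, and RagC-D by 0.61, from 128, 141 and 108 CPM to 192, 191 and 192 CPM. Both had no overlap between the stages and were called in the length-corrected fit with the block, at 0.66 and 0.56. Lamtor1 (CG14184) was called at 0.54 (FDR = 0.00507, edgeR) but not after removal of the length trend (0.14, FDR = 0.271). These are short genes, with 543 to 1558 exonic bp for the 5 with the widest increases.

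In the opposite direction, path and scyl of the same list had the widest differences. The gene path, an amino acid transporter that promotes growth, was read at 76.9, 67.8 and 112 CPM in larval and 18.1, 21.1 and 36.0 CPM in prepupal libraries (log2 fold change -1.77, SE 0.27, FDR = 0.000547, edgeR). It was at -1.52 with the length trend removed and the block. The gene scyl, a stress-induced inhibitor of Tor signalling, fell by 1.60 on the log2 scale (FDR = 0.00333, edgeR), with larval replicate 2 at 13.6 CPM between the other larval (27.3 and 40.2 CPM) and the prepupal libraries (7.18 to 11.0 CPM), and by 1.23 in the length-corrected fit with the block.

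Among 10 genes downstream of Tor, 4 were called lower and 1, Maf1, higher, with a median of -0.39, beside 27.3% lower and 26.6% higher among all tested genes. In the length-corrected fit with the block 6 were lower, Thor and REPTOR-BP (-0.67, FDR = 0.00138, edgeR) in addition, and 1 was higher. That fit called 22.8% of all tested genes lower and 30.5% higher. REPTOR, a transcription factor held in the cytoplasm by active Tor, was read at 34.1, 13.2 and 44.6 CPM in larval and 3.21, 2.08 and 3.73 CPM in prepupal libraries. Its log2 fold change was -3.35 (SE 0.42, FDR = 0.000199, edgeR), and -2.69 with the length trend removed and the block. The RNA-binding protein gene larp was at -1.80 (SE 0.38, FDR = 0.0032, edgeR), with 122, 41.1 and 135 CPM in larval and 33.9, 20.7 and 31.1 CPM in prepupal libraries, and at -1.02 in that fit. Larval replicate 2 was the larval library closest to the prepupal ones for both genes, and without it REPTOR was at -3.69 and larp at -2.14. The remaining lower genes in both fits were eIF4G1, the scaffold of the cap-binding complex (-1.42), and Tif-IA, an initiation factor of RNA polymerase I (-0.53). Maf1, a repressor of RNA polymerase III, was at 0.52 (FDR = 0.00911, edgeR).

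**Figure D4:**
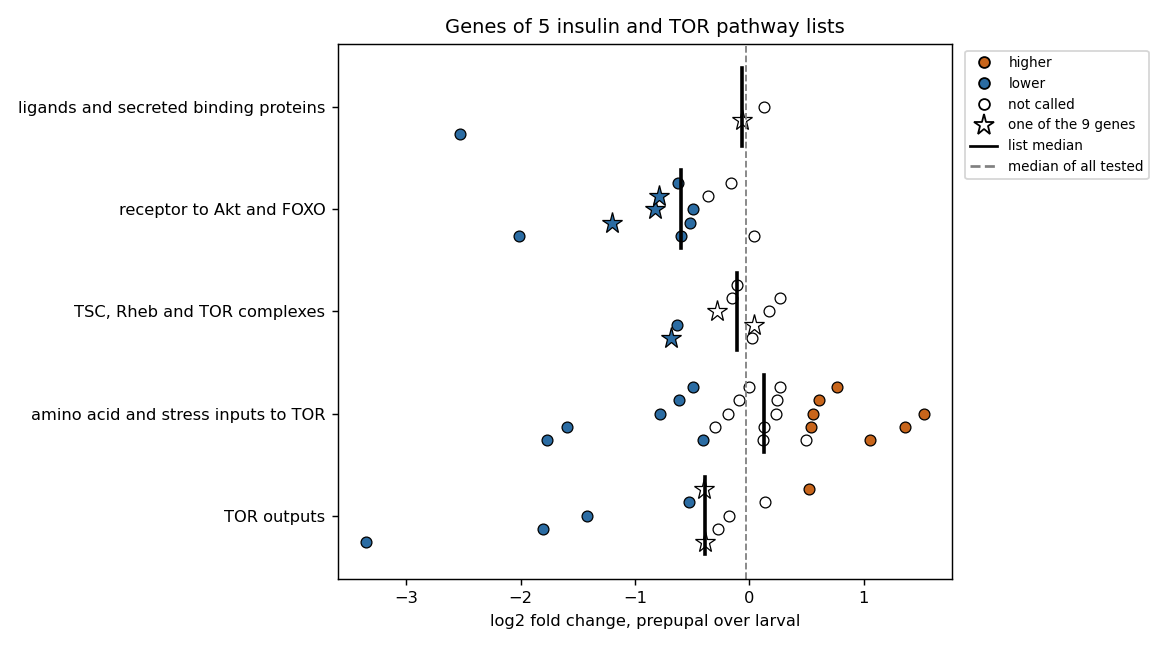
Log2 fold change (prepupal over larval, x axis) of every tested gene in 5 pathway lists, from 3 libraries per stage with the length trend left in; filled circles were called, stars are genes among the 9, and vertical position within a list only separates the symbols. The list from receptor to Akt and foxo has its median at -0.60, and the 7 genes called higher among the inputs reach 1.53.

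The gene with the largest fall among the 9, InR, had its closest likeness over the 6 libraries in CG42232 (Pearson r of log2 CPM 0.9996) and na (0.9975), and Tor, with the highest log2 fold change, in Pde9 (0.986) and wls (0.976). These values describe 6 libraries of 2 stages, so genes that share a stage difference and the same odd library correlate whatever else they do, and the likest genes were picked from 7914.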

How the data were processed

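RNA of sorted Hml+ hemocytes (polyadenylated, not stranded, single reads of 50 bp) was trimmed by the authors with trimmomatic and aligned with STAR to dm6. The submitters' processing notes name featureCounts, and no source used here gives its strand setting. The authors deposited raw counts per gene, not normalized, with replicates not pooled. Overlapping genes could share reads.

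The analysis used edgeR 4.0.16 under R 4.3.3 (TMM factors, filterByExpr with a minimum count of 10, quasi-likelihood test with stage as the only term, Benjamini-Hochberg over 7914 genes). The standard error is the log2 fold change over the square root of F. Library totals of 19228352 to 25958543 counts set the precision, and genes with few counts have wide errors. Log2 CPM used a prior count of 2.

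Exonic lengths were taken from a newer Ensembl release for the assembly, in which 99.7% of 13332 shared genes had the same coordinates. The length trend was removed by loess (span 0.5) of log2 CPM, relative to the mean of the libraries, on log2 length, given as an offset. To check the pairing, each library was centred on its stage mean, and larval and prepupal libraries of the same number were correlated over genes (r = 0.277, 0.30 and 0.102 for numbers 1, 2 and 3). All exceeded 0.1, the third barely, and the labels do not say what a number stands for, so the pairing comes from the data. Blocked values are given where they change a call and with the length trend.

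The 9 genes and all lists were chosen with earlier results of these data known. Of the other pathway genes, Pi3K92E, Akt1, Pdk1, Rheb, raptor, Ilp genes with at least 10 counts and, per direction, the 5 called genes of at least 5 CPM with the widest log2 fold change and no overlap were named, and 1 further gene of this rule is not reported here. A few others, such as Lnk, dock, chrb, AMPKalpha, Lkb1, REPTOR-BP, Lamtor1, rictor, Sec13, eIF4G1, Tif-IA, Maf1, Lip4, bmm and l(2)efl, were named after their values were seen, to account for a count. Lamtor genes were matched by gene ID, and 4 listed genes (Ilp1, Ilp4, Ilp7 and Lamtor2) were not analysed here. Marker lists covered plasmatocytes, crystal cells, lamellocytes, fat body, salivary glands and muscle.

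Alternatives were scaling by upper-quartile factors, by total counts or by the size factors of DESeq2 1.42.0, the DESeq2 test, no filter, a minimum mean count of 10, limma-voom (limma 3.58.1), an FDR of 0.01, at least 2-fold, the block, the length trend, and leaving out each library. In a test on simulated data, in which 200 of 7842 genes differed between prepupal and larval libraries by 1 on the log2 scale, edgeR recovered 92% with 11 false calls.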

Additional observations from a re-analysis of the deposited data

How the results depend on the processing

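Of the 9 genes, 4 were called lower in the main test. Other settings gave 1 to 6, such as 6 with total counts, 5 with upper-quartile factors and 3 with limma-voom. The number called lower among all 7914 tested genes shifted as well. It was 2159 in the main test, 2927 with total counts, 2216 with upper-quartile factors and 2150 with limma-voom. Without prepupal replicate 3 the 4 held Tsc1 in place of InR. The length trend moved the balance: with it removed 2 were lower and 1 higher, and with the replicate block added 3 were lower and 1 was higher. Requiring at least 2-fold left 1 called, 1 lower. Of the pathway genes, 29 were called in the main test (8 higher, 21 lower). With the length trend removed 15 were higher and 13 lower, with the block as well 15 were higher, and at least 2-fold left 11, of which 3 were higher and 8 lower. Of all tested genes, 29.2% were higher and 22.1% lower with the length trend removed, and 30.5% and 22.8% with the block as well. At least 2-fold left 12.1% of all tested genes lower. With the replicate block alone, 6 of the 9 and 36 pathway genes were called, beside 4736 of all 7914 tested genes.

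Total counts gave Tsc1 -0.48 and S6k -0.59 (both called, edgeR), Tor -0.16, Rheb -0.024 and Ilp6 -0.067. Upper-quartile factors gave Tsc1 -0.30 (FDR = 0.0489, edgeR). Limma-voom gave InR -1.05, not called, and ImpL2 0.14. The replicate block gave ImpL2 0.11, and Tsc1 -0.29 and S6k -0.36, both called.

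Removal of the length trend gave InR -0.40, gig -0.20, ImpL2 0.15, Tsc1 0.057 and S6k 0.061, none called, and Tor 0.62, Pi3K92E 0.27 and raptor 0.38, all called higher. With the block as well, the values were InR -0.34, gig -0.20, ImpL2 0.31, Tsc1 0.060, S6k 0.073, Tor 0.63, Thor -0.72, Pi3K92E 0.27, raptor 0.40 and Rheb -2.1e-05, of which Tor, Thor, Pi3K92E and raptor were called.

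Leaving out single libraries, 3 to 5 of the 9 genes and 24 to 31 pathway genes were called. Among all tested genes, the calls then ran from 3251 of 8065 (without larval replicate 1) to 4552 of 8151 (without larval replicate 2). The log2 fold changes ranged from -1.54 to -0.83 for InR, -0.36 to -0.24 for Tsc1, -0.56 to -0.26 for S6k, -0.081 to 0.14 for Tor, -0.64 to 0.054 for Thor and -0.34 to 0.67 for ImpL2. ImpL2 turned positive without larval replicate 3 or prepupal replicate 2 (0.005), Tor negative without larval replicate 3 (-0.007) or prepupal replicate 1 (-0.081), and Tsc1 was called without prepupal replicate 3 (-0.36). The cause of these shifts was not tested beyond the settings themselves. Of the blocked fits, the one without length correction changed no other call among the 9. Thor and ImpL2, with 48 to 332 counts per library, had the widest standard errors beside InR.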
